A study of Mus musculus with 9 samples.

Results

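ATP-binding cassette (ABC) transporter genes of subfamilies A, B, C and G were described in mouse liver, leaving out the 5 genes whose products carry bile lipids, bile acids and conjugates across the canalicular membrane (Abcg5, Abcg8, Abcb4, Abcb11 and Abcc2). Members were all genes whose symbol in the platform annotation starts with Abca, Abcb, Abcc or Abcg and a digit, read from probe sets paired with exactly 1 symbol. This gave 33 of the 17514 genes tested, 14 in subfamily A, 6 in B, 9 in C and 4 in G.

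Total RNA from livers of c57Bl/6 mice was hybridised to Affymetrix GeneChip arrays, 5 from mice given a high-fat diet (HFD) with 21% fat and 42% of calories from fat, and 4 from mice on a control diet. The labels put mice on chow before the study, and sex, age, duration of feeding and batch are not among them. Each array title carries a code of its own, whose meaning is not given. Nothing in the labels states whether the arrays come from different animals, and the p-values then cover no more than the variation among arrays, part of which may be technical. Values are on the log2 scale, counted from a baseline set for every probe set, so that levels cannot be read, a weakly expressed gene cannot be told from an abundant one, and the liver label could not be checked against the level of hepatocyte markers.

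ABC transporters use the energy of ATP hydrolysis to move substrates across membranes. Subfamily A moves mainly lipids, subfamily B holds multidrug exporters and transporters of mitochondria and lysosomes, subfamily C exports organic anions and conjugates or regulates channels, and subfamily G holds sterol and drug exporters whose products mostly pair up to work. In the liver, exporters at the sinusoidal side send lipids to lipoproteins and conjugates back to the blood, while canalicular ones, among them those left out here, feed bile.

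Among the 33 genes, 1 fell and 0 rose in the HFD group, beside 1.87% of all genes lower and 3.37% higher. Abca8a, a subfamily A gene, fell by 0.65 ± 0.13 on the log2 scale (standard error, limma adjusted p = 0.0194), or 1.57-fold. The call rate of 3.03% among the members stands beside 5.24% of all genes called at an adjusted p under 0.05 in limma. At an unadjusted p under 0.05, 4 members were higher and 5 lower, which is 27.3% of members and 19.1% of all genes. All differences subtract control from HFD on the log2 scale and carry the fitted standard error over 5 HFD and 4 control arrays, and adjusted p-values are limma's, corrected over all 17514 genes.

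Differences of the members ran in both directions, from -0.65 (Abca8a) to 0.33 (Abca3). Their median was -0.03, against -0.02 over all genes, and the median of their sizes without regard to sign was 0.19, against 0.12 over all genes. The difference was above 0 for 14 members and below 0 for 19. The 32 members not past the threshold lay between -0.48 (Abcb10) and 0.33 (Abca3). The 95% interval lay within a 2-fold change in either direction for all 33 members, and within a 1.5-fold change for 26. Its width limits what could be seen, since the interval reached 0.25 to each side of the difference at the median over the members and 0.82 for Abca1, the widest.

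**Figure D1:**
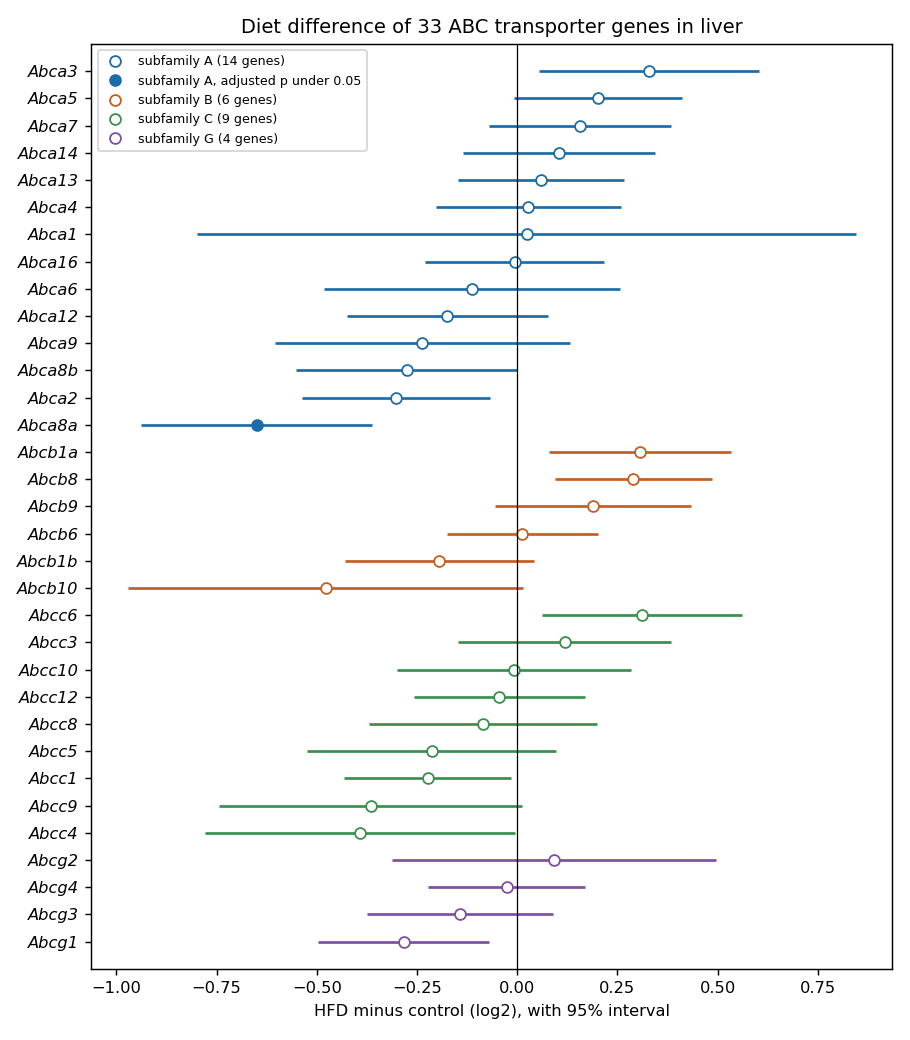
HFD minus control on the log2 scale (x axis) for each of the 33 genes (rows), grouped by subfamily from A at the top to G at the bottom, for 5 HFD and 4 control arrays. Circles are differences, bars are 95% intervals of the limma fit, and the filled circle marks Abca8a (-0.65), the gene past the threshold.

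By subfamily, the count past the threshold in limma was 1 of 14 in A, 0 of 6 in B, 0 of 9 in C and 0 of 4 in G. At an unadjusted p under 0.05 the counts were 3, 2, 3 and 1 in the same order. The median difference was 0.01 in subfamily A, 0.10 in B, -0.09 in C and -0.08 in G. In subfamily C 7 of 9 genes and in subfamily G 3 of 4 genes had a difference below 0, whereas 4 of 6 genes in subfamily B had one above 0. Beside these, 53.8% of all genes had a difference below 0, and differences between subfamilies were not tested. The mean of all 33 genes on an array ran from -0.15 to 0.03 in HFD and from 0.00 to 0.11 in control, so that the groups overlapped. HFD replicate 5 was the lowest of the 9 arrays by that mean, and over all probe sets its values also had the widest spread, with an SD of 0.33, against 0.22 to 0.27 on the other arrays.

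Abca8a lies on mouse chromosome 11 in a row of related genes, Abca8b, Abca8a, Abca9, Abca6 and Abca5, with no other protein-coding gene starting between them in the GRCm38.p6 annotation. Its human relative ABCA8 is known as a lipid transporter with a part in cholesterol efflux. The start regions of Abca8a and of its neighbour Abca8b, from 250 bases before to 50 bases after an annotated start, are given because Abca8a carries the only call and Abca8b is its closest neighbour of like name. Both are from RefSeq on GRCm38.p6, minus strand, at chr11:110095888-110096187 for Abca8a and chr11:109995796-109996095 for Abca8b. The genes as annotated reach to 110097580 for Abca8a and to 109996274 for Abca8b. Both windows therefore lie inside the genes and not at their outermost start. Capitals mark the E-box CACGTG, a letter sequence bound by several basic helix-loop-helix factors.
Abca8a: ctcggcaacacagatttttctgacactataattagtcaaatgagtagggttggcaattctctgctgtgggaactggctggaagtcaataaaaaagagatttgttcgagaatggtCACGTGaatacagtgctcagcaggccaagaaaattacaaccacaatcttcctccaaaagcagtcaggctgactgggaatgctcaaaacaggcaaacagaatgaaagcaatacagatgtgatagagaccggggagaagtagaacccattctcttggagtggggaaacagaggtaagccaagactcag
Abca8b: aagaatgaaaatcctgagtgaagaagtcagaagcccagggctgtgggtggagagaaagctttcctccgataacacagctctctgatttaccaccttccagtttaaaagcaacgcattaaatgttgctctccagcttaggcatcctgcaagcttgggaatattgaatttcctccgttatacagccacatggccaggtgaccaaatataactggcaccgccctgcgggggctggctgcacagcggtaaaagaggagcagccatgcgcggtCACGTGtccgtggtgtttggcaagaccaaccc
The E-box, which reads the same on both strands, starts 136 bases before the start in Abca8a and 18 bases after it in Abca8b. It was added to the motifs searched after these windows had been read, and 7.15% of all 32851 windows of the same length hold it. Aligned end to end, the windows of Abca8a and Abca8b were 45.7% identical, and the window of Abca9 holds no E-box.

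Abca8a stood at 0.03, -0.03, -0.32, -0.54 and -0.40 on HFD replicates 1 to 5, and at 0.46, 0.47, 0.48 and 0.18 on control replicates 1 to 4. The groups did not overlap, with HFD replicates 1 and 2 nearest to control replicate 4, the lowest control. Groups did not overlap in 2 of the 33 members, or 6.06%, beside 9.82% of all genes. Of these 1 was lower (Abca8a) and 1 higher (Abcb8), beside 4.2% and 5.62% of all genes. The mean was -0.25 ± 0.24 (SD, n = 5) in HFD and 0.40 ± 0.14 (SD, n = 4) in control. Abca8a has 1 probe set, so that no second one could be compared, and its 95% interval ran from -0.94 to -0.36. The difference stayed between -0.72 and -0.58 under every alternative tried, but the limma call ended without HFD replicate 3 (adjusted p = 0.0528), control replicate 1 (adjusted p = 0.0525), control replicate 2 (adjusted p = 0.0670) or control replicate 3 (adjusted p = 0.0630). Over all alternatives the adjusted p of Abca8a lay between 0.0134 and 0.0743.

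Its neighbours did not pass. Abca8b stood at -0.30, -0.24, 0.05, 0.18 and -0.33 on HFD replicates 1 to 5, and at 0.21, 0.15, 0.27 and -0.05 on control replicates 1 to 4, a difference of -0.28 ± 0.12 (adjusted p = 0.262). HFD replicates 3 and 4 lay among the controls in Abca8b, while in Abca8a HFD replicate 4 was the lowest of all arrays. Abca9 differed by -0.24 ± 0.17, Abca6 by -0.11 ± 0.17 and Abca5 by 0.20 ± 0.09, with adjusted p-values of 0.498, 0.775 and 0.284. Whether Abca8a differed from these neighbours in its response was not tested.

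Sterol efflux genes outside the canaliculus showed no call. Abca1 hands cholesterol and phospholipid to apolipoprotein A-I, a step that starts HDL formation, and the liver is a main site of it. It stood at 0.10, 0.65, -1.09, 0.83 and -0.66 on HFD replicates 1 to 5, and at 0.31, -0.10, 0.11 and -0.56 on control replicates 1 to 4. HFD arrays lay both above and below all controls, and the mean was -0.03 ± 0.83 (SD, n = 5) in HFD and -0.06 ± 0.37 (SD, n = 4) in control. The difference was 0.02 ± 0.37 (adjusted p = 0.983), with a 95% interval from -0.80 to 0.85, which includes a change of 1.5-fold in either direction.

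The spread of Abca1 also appeared in a second probe set. That one stood at -0.01, 0.49, -0.94, 0.49 and -1.08 on HFD replicates 1 to 5, and between 0.00 and 0.23 on the control replicates. HFD replicates 2 and 4 were high and HFD replicates 3 and 5 low in both of these probe sets. The last probe set of Abca1 spread less, between -0.27 and 0.20 in HFD and between -0.25 and 0.30 in control. Among all members HFD replicates 3 and 5 were the lowest pair of HFD arrays in 10 of 33 (30.3%), beside 21.6% of all genes, and the SD was larger in HFD than in control in 63.6% of members and 65.1% of all genes.

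Abcg1, which loads cholesterol from macrophages and other cells onto HDL, stood at -0.07, -0.22, -0.23, 0.03 and -0.30 on HFD replicates 1 to 5, and at 0.15, 0.11, -0.03 and 0.26 on control replicates 1 to 4. HFD replicate 4 lay above control replicate 3, the lowest control, and the difference was -0.28 ± 0.10 (adjusted p = 0.131). Its second probe set differed by -0.02 ± 0.10, and with probe sets averaged the difference of Abcg1 was -0.15. Abca7, a phospholipid exporter related to Abca1, differed by 0.16 ± 0.10 and Abcg4, a relative of Abcg1 best known from brain, by -0.03 ± 0.09. These were the 4 members of the sterol and phospholipid efflux group, and 1 of them was under an unadjusted p of 0.05.

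Macrophages, in which Abcg1 is best known, have markers of their own, and those of liver macrophages were lower in HFD. Of 13 measured Kupffer cell markers 10 fell and none rose (median difference -1.43), beside 1.87% of all genes lower and 3.37% higher. The mean of these markers on an array ran from -1.34 to 0.12 in HFD and from 0.16 to 1.36 in control, without overlap. Of 11 markers of sinusoidal endothelial cells 3 fell and none rose (median difference -1.03), with array means from -1.20 to 0.20 in HFD and from 0.15 to 0.71 in control, which overlap. In both lists HFD replicate 4 was the highest HFD array and HFD replicate 5 the lowest, as in the probe set that stands for Abcg1. The second probe set of Abcg1 went the other way, with HFD replicate 4 the lowest HFD array (-0.26) and HFD replicate 5 the highest (0.20). In whole liver, fewer cells of a type and less RNA per cell cannot be told apart, centred values do not show which markers are near background, and the part of these markers in the values of Abcg1, Abca1 or Abca9 was not tested. With single arrays left out the Kupffer cell count was 2 (control replicate 2 out), 3 (HFD replicate 3, control replicate 1 or control replicate 3 out), 5 (HFD replicate 2 out), 6 (HFD replicate 1 out) and at most 13. The endothelial count was between 0 and 9 and moved by more than 1.5 times whichever array was left out. With no moderation of the variances, 0 markers of either list passed.

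**Figure D2:**
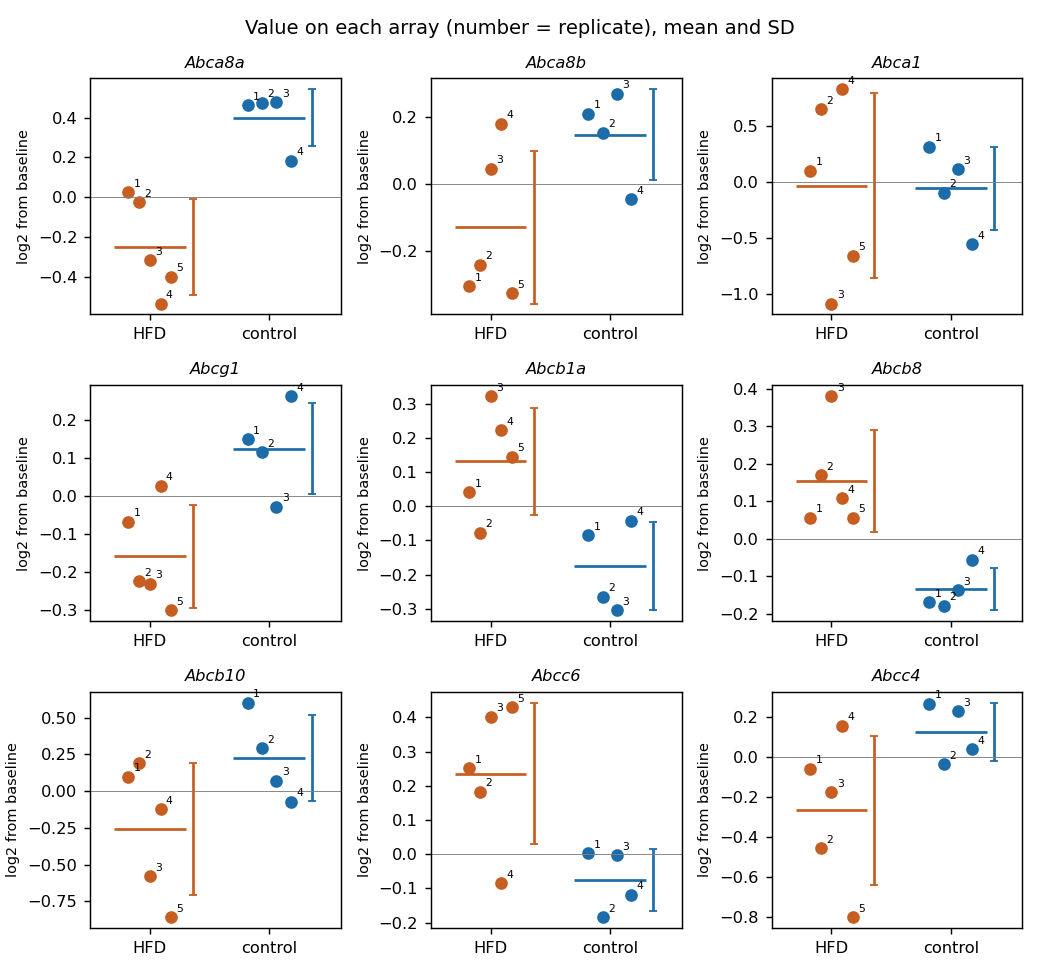
Log2 value from the probe set baseline (y axis, its range differs by panel) on every array for 9 genes, with 5 HFD arrays left and 4 control arrays right, each point numbered by replicate, horizontal lines for means and bars for SD. HFD arrays of Abca8a lie below all controls (0.03 to -0.54, against 0.18 to 0.48), those of Abcb8 lie above all controls, and those of Abca1 spread from -1.09 to 0.83.

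Other subfamily A genes that passed no threshold included a pair with opposite signs. Abca2, a lipid transporter of endosomes and lysosomes known from nervous tissue, stood at -0.25, 0.08, -0.14, -0.34 and -0.31 on HFD replicates 1 to 5, and at 0.24, 0.13, -0.06 and 0.14 on control replicates 1 to 4. Its difference was -0.30 ± 0.11 (adjusted p = 0.144), and HFD replicate 2 lay among the controls. Abca3, which fills the lamellar bodies of lung surfactant with phospholipid, stood at 0.07, -0.08, 0.59, 0.24 and 0.26 on HFD replicates 1 to 5, and between -0.15 and -0.07 on the 4 controls. The difference of Abca3 was 0.33 ± 0.12 (adjusted p = 0.176), HFD replicate 2 lay among the controls, and its other 2 probe sets differed by -0.09 and -0.01, which brought the mean of its probe sets to 0.08.

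The remaining genes of subfamily A lay closer to 0. Abca12, a lipid transporter of skin, differed by -0.17 ± 0.11, Abca14 by 0.10 ± 0.11 and Abca13 by 0.06 ± 0.09. Abca4, a transporter of retinoids in photoreceptors, differed by 0.03 ± 0.10 and Abca16 by -0.01 ± 0.10. Groups overlapped in all 5 of these genes. No transcript level can be given for them, and whether liver expresses them cannot be read from centred values.

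Multidrug exporters did not pass either. Mouse has a pair of genes for P-glycoprotein, an exporter of lipophilic drugs, Abcb1a and Abcb1b, which lie on chromosome 5. Abcb1a stood at 0.04, -0.08, 0.32, 0.22 and 0.15 on HFD replicates 1 to 5, and at -0.08, -0.26, -0.31 and -0.04 on control replicates 1 to 4, with HFD replicate 2 among the controls. Its difference was 0.31 ± 0.10 (adjusted p = 0.128). Abcb1b differed by -0.19 ± 0.11 (adjusted p = 0.365), the opposite sign. Their second probe sets differed by 0.06 ± 0.08 for Abcb1a and by 0.00 ± 0.08 for Abcb1b, and the difference between the genes was not tested.

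Abcg2, the breast cancer resistance protein, exports drugs and urate. It stood at 0.44, 0.37, -0.21, 0.29 and -0.48 on HFD replicates 1 to 5, and between -0.10 and 0.06 on the 4 controls, a difference of 0.09 ± 0.18 (adjusted p = 0.842). As in Abca1, HFD arrays lay on both sides of the controls, with HFD replicates 3 and 5 low. Abcg3, a gene of rodents related to Abcg2, stood at -0.10, -0.01, -0.13, 0.20 and -0.04 on HFD replicates 1 to 5, and at 0.15, 0.36, -0.02 and 0.01 on control replicates 1 to 4. The groups overlapped, and the difference of Abcg3 was -0.14 ± 0.11 (adjusted p = 0.521). Of the 4 measured members of the multidrug group 1 was under an unadjusted p of 0.05.

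Transporters of mitochondria and lysosomes held the second gene whose groups did not overlap. Abcb8, a transporter of the inner mitochondrial membrane linked to iron handling in mouse heart, stood at 0.06, 0.17, 0.38, 0.11 and 0.06 on HFD replicates 1 to 5, and at -0.17, -0.18, -0.14 and -0.06 on control replicates 1 to 4. All 5 HFD arrays lay above all 4 controls, yet the difference of 0.29 ± 0.09 did not pass (adjusted p = 0.0951). Its second probe set had the opposite sign, at -0.09 ± 0.11, and with probe sets averaged the difference was 0.10.

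Abcb10, an inner-membrane transporter known for its part in haem synthesis of red cell precursors, had the most negative difference after Abca8a. It stood at 0.10, 0.19, -0.58, -0.12 and -0.86 on HFD replicates 1 to 5, and at 0.60, 0.29, 0.07 and -0.07 on control replicates 1 to 4. HFD replicates 1 and 2 lay among the controls and HFD replicates 3 and 5 far below, and the difference was -0.48 ± 0.22 (adjusted p = 0.281). A second probe set of Abcb10 differed by -0.35 ± 0.16 and the last by 0.05 ± 0.10. Without HFD replicate 5 and control replicate 1 together the difference of Abcb10 was -0.20. Abcb9, a peptide transporter of lysosomes, differed by 0.19 ± 0.11 and Abcb6, a porphyrin transporter, by 0.01 ± 0.08.

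**Figure D3:**
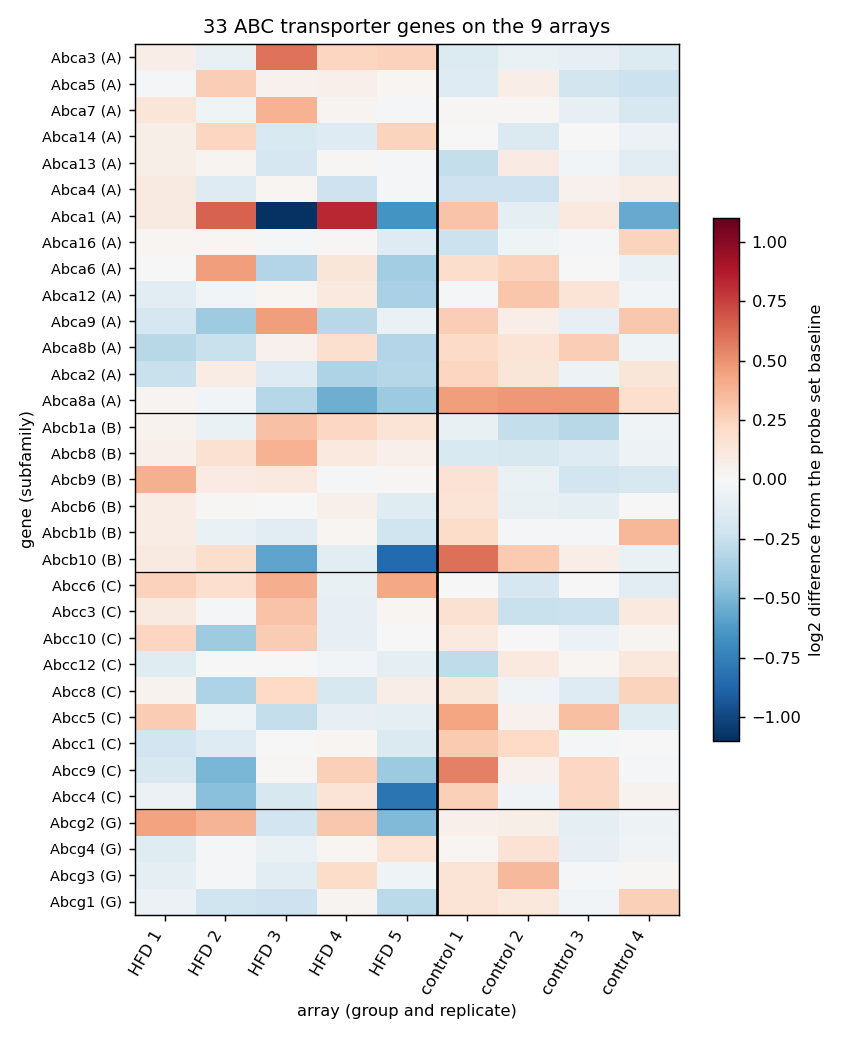
Log2 difference from the probe set baseline (colour, red above and blue below 0) of the 33 genes (rows, subfamily in brackets, sorted by difference within each) on the 5 HFD arrays (left of the line) and the 4 control arrays (right). The darkest cells are those of Abca1 on HFD replicates 3 (-1.09) and 4 (0.83) and of Abcb10 on HFD replicate 5 (-0.86), and no subfamily is of 1 colour in either group.

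Organic anion exporters of subfamily C had differences of both signs, none past the threshold. Abcc6, a liver transporter tied to ATP release whose human loss causes pseudoxanthoma elasticum, stood at 0.25, 0.18, 0.40, -0.09 and 0.43 on HFD replicates 1 to 5, and at 0.00, -0.18, 0.00 and -0.12 on control replicates 1 to 4. HFD replicate 4 lay among the controls and the other HFD arrays above them, and the difference was 0.31 ± 0.11 (adjusted p = 0.155). Without HFD replicate 4 the difference of Abcc6 was 0.39 and passed (limma adjusted p = 0.0409), and over all alternatives its adjusted p lay between 0.0409 and 0.342. Abcc6 has 1 probe set.

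Abcc4, a sinusoidal exporter of bile acids and cyclic nucleotides, stood at -0.06, -0.46, -0.18, 0.15 and -0.80 on HFD replicates 1 to 5, and at 0.26, -0.04, 0.23 and 0.04 on control replicates 1 to 4. HFD replicate 5 was the lowest array and HFD replicate 4 lay among the controls. The difference of Abcc4 was -0.39 ± 0.17 (adjusted p = 0.254), and without HFD replicate 5 it was -0.26. Abcc3, the other sinusoidal exporter that carries glucuronides and bile acids, differed by 0.12 ± 0.12 (adjusted p = 0.658), with HFD arrays from -0.09 to 0.31 and controls from -0.24 to 0.17.

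Abcc1, which exports glutathione conjugates such as leukotriene C4, stood at -0.21, -0.14, 0.00, 0.02 and -0.16 on HFD replicates 1 to 5, and at 0.29, 0.22, -0.01 and 0.00 on control replicates 1 to 4. HFD replicates 3 and 4 lay among the controls, and the difference was -0.22 ± 0.09 (adjusted p = 0.227). Abcc5, an exporter of nucleotide analogues, has 10 probe sets, the most of any member. The one that stands for Abcc5 differed by -0.21 ± 0.14, and the others ran from -0.26 to 0.10, with 7 of the 10 below 0. Abcc12 differed by -0.04 ± 0.10 and Abcc10, a drug exporter, by -0.01 ± 0.13. Of the 7 organic anion exporters 3 were under an unadjusted p of 0.05, 1 higher (Abcc6) and 2 lower (Abcc1 and Abcc4).

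Sulfonylurea receptors are members of subfamily C that regulate potassium channels and move no known substrate. Abcc9, found in vessel walls and muscle, stood at -0.18, -0.51, 0.01, 0.26 and -0.40 on HFD replicates 1 to 5, and at 0.56, 0.04, 0.23 and -0.01 on control replicates 1 to 4, a difference of -0.37 ± 0.17 (adjusted p = 0.282). Its other 2 probe sets differed by -0.34 and -0.17, of the same sign. HFD replicates 3 and 4 lay among the controls and the other HFD arrays below them. Of 10 stellate cell markers 2 rose and 1 fell, beside 3.37% of all genes higher and 1.87% lower. The mean of the 10 was -0.15, -0.32, 0.44, 0.49 and 0.37 on HFD replicates 1 to 5 and ran from -0.30 to 0.06 in control. With single arrays left out 1 to 2 of these markers rose and 0 to 2 fell, and with probe sets averaged 1 rose and 0 fell. The part of these cells in Abcc9 was not tested. Abcc8, the receptor of pancreatic beta cells, differed by -0.09 ± 0.13.

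Several probe sets of 1 gene often disagreed. Of the 33 members 14 had 1 probe set and 19 had more, 65 in all. The sign was shared by every probe set in 8 of the 19 (42.1%), beside 46.4% of the 8404 genes with several. Fitted as 32801 separate probe sets, 1 of the 65 passed, that of Abca8a, beside 4% of all probe sets. The probe set with the largest SD over the arrays stands for a gene, a choice that favours large differences. With probe sets averaged, the difference was smaller by more than 1.5 times in 14 of the 19, among them Abca3, Abcb8, Abcb1a, Abcb10, Abcc1 and Abcg1, and larger by more than that in 2.

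**Figure D4:**
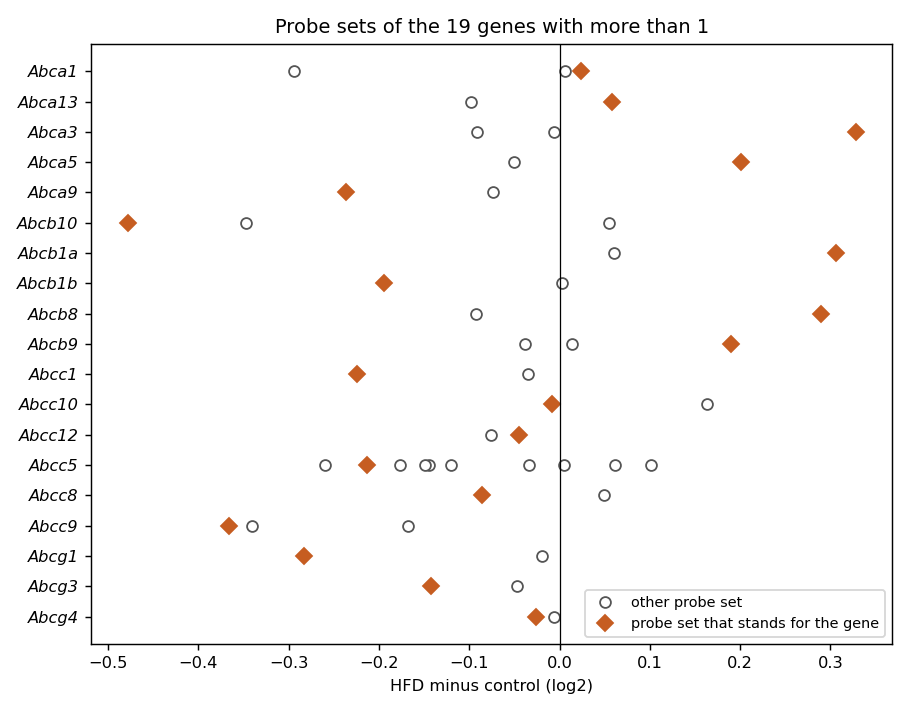
HFD minus control on the log2 scale (x axis) of every probe set of the 19 genes with more than 1 (rows), for 5 HFD and 4 control arrays. Diamonds mark the probe set that stands for the gene and open circles the others, and in 11 of the 19 genes the points lie on both sides of 0, as for Abcb8 (0.29 and -0.09), while all 3 of Abcc9 lie below 0.

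RefSeq start windows on GRCm38.p6 were found for 25 of the 33 members, 29 windows in all, and searched for motifs on both strands. The motifs were those of nuclear receptors, NRF2 and the aryl hydrocarbon receptor, the general TATA and CCAAT boxes, and the E-box. Because the E-box was added after the windows of Abca8a and Abca8b had been read, its count includes windows read beforehand. The sequence AGGTCA, the unit that nuclear receptors bind, was in 17.2% of member windows and 16.3% of all windows. The antioxidant response element TGACNNNGC, bound by NRF2, was in 20.7% of member windows and 12.4% of all, and the xenobiotic response core GCGTG, bound by the aryl hydrocarbon receptor, in 20.7% and 32.4%. A gene with several starts counts once per window, among members and among all genes alike. The AGGTCA windows are of Abcb6, Abcc10 and Abcg2, and the antioxidant response element windows of Abca8b, Abcb1a, Abcc10 and Abcc4. The TATA box TATAAA was in 17.2% of member windows and 13.6% of all, and the CCAAT box CCAAT in 27.6% and 37.4%. The E-box was in 4 of the 29 member windows (13.8%), those of Abca1, Abca8a, Abca8b and Abcc4, and in Abca8b it shares 2 bases with a match of the antioxidant response element on the other strand. Of the motifs searched, the window of Abca8a held the E-box alone, which says only that the other letters are not in it.

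Regulators of these transporters were read from the same fit. Of 16 measured genes 2 rose and 2 fell, with a median difference of 0.06. Beside this list and those that follow, 3.37% of all genes were higher and 1.87% lower. Ppara, the receptor of fatty acids that drives their oxidation, rose by 1.34 ± 0.27, and Pparg, the receptor of fat storage, by 0.82 ± 0.16. Srebf2, which drives cholesterol synthesis, fell by 0.81 ± 0.14, and Hnf4a, a hepatocyte transcription factor, by 0.91 ± 0.19. Nr1h3 (LXR alpha), the oxysterol receptor that induces Abca1 and Abcg1, differed by -0.05 ± 0.15 (adjusted p = 0.908), and Nfe2l2, which encodes NRF2, by 0.99 ± 0.28 (adjusted p = 0.0726). The higher count was 0 without HFD replicate 3 or control replicate 2 and 1 without control replicate 3 or 4, and the lower count was 1 without any of these 4 arrays. With no moderation the higher count was 0 and the lower count 1, and without probe sets ending in _x_at or _s_at the lower count was 1. The probe set that stands for Hnf4a, 1 of 4, ends in _s_at, and that of Srebf2, 1 of 2, does not.

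Of 13 measured partners of HDL formation and lipid efflux none passed in limma, 4 were under an unadjusted p of 0.05, and the median difference was 0.06. Apoa1, whose product accepts lipid from Abca1, differed by -0.08 ± 0.07, and Pltp, the phospholipid transfer protein, by -1.25 ± 0.36 (adjusted p = 0.0742). Without control replicate 1 the count of higher genes was 1, and without HFD replicate 4 that of lower genes was 2. The count of lower genes was 1 with array weights or without the genes that varied least. Of 16 measured genes of iron-sulfur cluster and haem synthesis, the pathways that mitochondrial ABC transporters serve, 4 rose and none fell, with a median difference of 0.12. Iscu, the scaffold of iron-sulfur clusters, rose by 0.47 ± 0.08, Glrx5, which passes clusters on, by 0.39 ± 0.09, and Gfer, a sulfhydryl oxidase, by 0.54 ± 0.10. Cpox, an enzyme of haem synthesis, rose by 1.16 ± 0.26. Alas1 did not pass but had the most negative difference of the 16, at -1.27 ± 0.36 (adjusted p = 0.0756). Differences were above 0 for 9 of the 16 genes and below 0 for 7. The count of higher genes was 1 without control replicate 2, and 2 without HFD replicate 3 or control replicates 1, 3 or 4. Without HFD replicate 4, 2 genes fell. With no moderation 2 rose, and 1 gene fell with a further quantile step, with array weights or without the genes that varied least.

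Of 9 measured carriers that bring organic anions and cations into hepatocytes or out with them, 2 rose and none fell, namely Slc47a1, an exporter of organic cations, by 0.53 ± 0.11 and Slco2b1, an organic anion uptake carrier, by 0.38 ± 0.08, while the median difference of the 9 was -0.09. The higher count was 0 without HFD replicate 3 or control replicates 2, 3 or 4, and 1 without HFD replicates 2 or 5 or control replicate 1. It was also 1 with probe sets averaged, without probe sets ending in _x_at or _s_at, without the 25% of genes that varied least and with no moderation. ABC genes of other subfamilies and the peptide transporters Tap1 and Tap2 gave 0 of 9 past the threshold in limma and a median difference of 0.09, with 2 under an unadjusted p of 0.05, Abcf1 (0.57 ± 0.25) and Abcf2 (-0.31 ± 0.12). In the 5 canalicular genes left out, 4 rose and none fell, by 1.99 ± 0.20 for Abcg5, 1.48 ± 0.16 for Abcg8, 0.53 ± 0.10 for Abcb4 and 0.43 ± 0.09 for Abcc2, with Abcb11 at -0.22 ± 0.10. The count of 4 was 2 when HFD replicate 5 and control replicate 1 were both left out. It was also 2 at an adjusted p under 0.01 and with a change of at least 1.5-fold. Without probe sets ending in _x_at or _s_at it was 3, and with single arrays left out it was 3 to 4. No test set these 5 against the 33.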

How the data were processed

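Liver RNA of 5 HFD and 4 control arrays was analysed from the deposited log2 values of 41842 probe sets. The series' design text says that the authors ran RMA with quantile normalization and then centred each probe set on its median over all samples. A median over the arrays analysed here, odd in number, would leave an array at 0 in each probe set. Instead, the middle values mirrored each other around 0 in 92.9% of probe sets (tolerance 1e-05). Abca8a, for example, had 0.0258 and -0.0258 in the middle and no array at 0. Which samples the median covered, and whether others entered the normalization, cannot be read from these values. An RMA version and the log base are not given in the sources used here, and log2 was assumed because RMA returns it. Centring keeps differences but removes levels, so that no filter on low signal was possible.

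Left out were 60 control probe sets, 862 with several gene symbols in the platform annotation and 8119 with none. Of the 32801 left, the one with the largest SD over the 9 arrays stood for each of 17514 genes. limma 3.58.1 (R 4.3.3, lmFit and eBayes, no covariate) tested HFD against control, two-sided, with Benjamini-Hochberg adjustment over all genes and a threshold of 0.05. In 20 simulations of this comparison with 200 of 17514 genes changed, the fit recovered 98.2% of log2 changes of 2, 85.4% of 1 and 40.3% of 0.5, and 5.29% of its calls were false. The simulations drew independent normal errors and changed fewer genes than the 917 called in the data. Their rates need not hold for these arrays. The number of arrays limits the precision.

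Replicates are numbered in order of deposition. The members and lists were chosen with earlier results of these data known, and lists are described by counts and medians. Values per array are given for members past the threshold, for the 3 of each subfamily with the lowest p, for those whose groups do not overlap and for Abca1, whose role list was to be named with values. Those of Abca8b and Abcc9 were added after their values were seen, and the other members are given by differences or ranges. The canalicular genes are all named. Of the other lists, up to 4 genes past the threshold are named, and Nr1h3, Nfe2l2, Apoa1, Pltp, Alas1, Abcf1 and Abcf2 were added after their values were seen. Markers of cholangiocytes, adipocytes, neutrophils, lymphocytes and hepatocytes had 0 of 5, 1 of 4, 1 of 6, 0 of 6 and 2 of 7 measured genes past the threshold (hepatocytes 1 higher and 1 lower). Over all genes 5.24% passed it.

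Alternatives changed the scaling (array medians subtracted, or arrays quantile normalized again), the probe sets (averaged, each fitted alone, or without those ending in _x_at or _s_at), the filter (without the 25% of genes that varied least), the fit (robust eBayes, array weights, no moderation), the threshold (0.01, or 0.05 with at least 1.5-fold) and the arrays (each left out in turn, or HFD replicate 5 and control replicate 1 both).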

Additional observations from a re-analysis of the deposited data

Results flagged for a closer look

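A single array stood apart from the rest of its group in 4 of the 66 groups of arrays examined, where chance flags about 1 in 20. In Abca8a, control replicate 4 stood at 0.18, while the nearest other control was at 0.46 and the highest at 0.48. In Abca16, HFD replicate 5 stood at -0.14, with the nearest other HFD array at -0.01. In Abca5, HFD replicate 2 stood at 0.27, with the nearest other HFD array at 0.06. In Abcb9, HFD replicate 1 stood at 0.39, with the nearest other HFD array at 0.10. Without control replicate 4 the difference of Abca8a was -0.72.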

How the results depend on the processing

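No paired analysis was made because the labels match no HFD array with a control array. Of 687 values of the 33 members under the alternatives, 653 kept their sign and their side of the threshold, 7 were of Abca8a without its call and 1 was of Abcc6 with one. The other 26 changed sign, without passing the threshold in either direction. They were of 8 genes, with averaged probe sets for Abca1 (-0.088), Abca13 (-0.020) and Abcc10 (0.078), with array weights for Abca16 (0.023), and with arrays left out for Abca1 (-0.19 to 0.30), Abca13 (-0.0043 to 0.11), Abca16 (-0.081 to 0.079), Abca4 (-0.028 to 0.082), Abca6 (-0.23 to 0.010), Abcb6 (-0.019 to 0.10), Abcc10 (-0.077 to 0.091) and Abcg4 (-0.067 to 0.022). The count of lower members was 0 with no moderation, at an adjusted p under 0.01 and with HFD replicate 5 and control replicate 1 both left out, and 0 to 1 with single arrays left out. The count of higher members was 0 to 1 with single arrays left out. Over all genes, the main count of 590 higher and 327 lower became 366 with no moderation, 245 at an adjusted p under 0.01, 596 with a change of at least 1.5-fold, and 385 to 996 with single arrays left out, of which it was 475 without HFD replicate 3, 385 without control replicate 2, 474 without control replicate 3 and 568 without control replicate 4. Leaving out arrays also lowers the power of the fit, and the cause of the other changes was not tested. Under each scaling the median difference over all genes stayed at -0.02. Centred values give no signal over background, so that weakly expressed members could not be set aside.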
